A study of Mus musculus with 4 samples.

Results

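The genes described here are 10 listed genes of MHC class I antigen presentation: the heavy chains *H2-K1* and *H2-D1*, the light chain *B2m*, the peptide transporter subunits *Tap1* and *Tap2*, the loading factor *Tapbp*, the immunoproteasome subunits *Psmb8*, *Psmb9* and *Psmb10*, and the regulator *Nlrc5*. They were listed by function as class I and immunoproteasome genes. They make up 10 of the 26391 genes of the control ligation file, 10 of 27696 in the *Trf2 T188A* ligation file and 10 of 31765 in each of the 2 plaque files.

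The study examined how telomere damage in vascular smooth muscle cells affects these cells after carotid ligation and in atherosclerosis. *Trf2 T188A* is a telomere-binding protein carrying an amino acid change, made in smooth muscle cells from the minimal *Sm22a* promoter. Single cells were profiled from 4 mouse libraries with 10x Genomics 3′ v3 chemistry, which counts unique molecular identifiers (UMIs) near the 3′ end of each transcript. Each genotype was 1 library in each experiment, and the number of animals per library was not stated.

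In the ligation experiment, C57Bl/6 *Trf2 T188A* mice and wild-type littermate controls had a carotid artery ligated at 4 to 5 months of age and were taken 28 days later, after removal of the adventitia and of sections without remodelling. In the plaque experiment, *ApoE-/-* and *Trf2 T188A*/*ApoE-/-* mice, both C57Bl/6 and both carrying the *Myh11-CreERt2*/Confetti lineage label, received tamoxifen at 6 weeks and a high fat diet for 14 weeks, and cells came from plaques of the aortic root, arch and carotid. Both plaque groups lacked *ApoE*, so no plaque group without this change was available. The paper writes the strain of both experiments as C57Bl6/J. The deposited plaque cells were limited to clusters expressing a Confetti reporter, while the ligation cells carried no such label.

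The control ligation library held 4967 cells and 47713453 UMIs. The median cell had 8631 UMIs from 2900 genes. The *Trf2 T188A* ligation library held 5392 cells and 67426588 UMIs, and its median cell 11153 UMIs from 3360 genes. The *ApoE-/-* plaque library held 1502 cells and 37869934 UMIs (medians 22765.5 and 5086.5), and the *Trf2 T188A*/*ApoE-/-* library 929 cells and 24064570 UMIs (medians 24377 and 5182). The ligation libraries shared 10 cell barcodes and the plaque libraries 0. Of *ApoE-/-* cells 83.6% had a Confetti UMI, and of *Trf2 T188A*/*ApoE-/-* cells 85.4%.

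Class I molecules carry peptides from inside the cell to its surface. The proteasome cuts the peptides, the TAP transporter moves them into the endoplasmic reticulum, and tapasin helps load them on a heavy chain bound to beta-2 microglobulin. The immunoproteasome subunits take the places of constitutive subunits in cells responding to interferon, and *Nlrc5* encodes an activator of class I promoters.

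*Terf2*, the gene of the transgene, had 0.179 UMIs per 10000 (95% interval 0.167 to 0.191) in control and 0.168 (0.159 to 0.178) in *Trf2 T188A* ligation cells, and 0.183 in both plaque libraries. A 3′ tag cannot tell the mutant transcript from the endogenous one, so these levels check nothing about the transgene.

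Levels are UMIs of a gene per 10000 UMIs, pooled over the cells of a class. Intervals are exact 95% Poisson intervals for levels and ratios and Clopper-Pearson intervals for shares. They cover counting error only, there were no replicates, and no test was made. Genes seen in 10% or more of the cells of 1 or both groups compared pass the detection limit, and a change counts as past the limit at a log2 ratio of 0.25 in either direction. Cells were grouped without using the members, and classes were named from marker genes. A class against another class is a description. Plaque and ligation were not compared by ratio.

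Ligation cells fell into 6 classes. The *Sparcl1*-led class held 1522 control and 2221 *Trf2 T188A* cells, remodelling-like cells 2024 and 1845, and de-differentiated-like cells 1228 and 1145. The closest marker list of the *Sparcl1*-led class was the contractile one, at a mean log2 ratio of 0.30, short of the limit for a name of 0.5, and it served as the reference in place of a contractile class. Interferon-like cells made up 2.25% (1.86% to 2.71%) of control and 1.09% (0.834% to 1.41%) of *Trf2 T188A* cells, or 112 and 59 cells. Endothelial-like cells numbered 62 and 65. The macrophage-like class, with 19 and 57 cells (0.383% and 1.06%), had too few control cells for ratios, and its 10 members summed to 61.2 and 64.6 UMIs per 10000.

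The level of the members was first read by class in each ligation library. The 10 members summed to 10.1 UMIs per 10000 in control and 11.8 in *Trf2 T188A* *Sparcl1*-led cells. Remodelling-like cells had 19.2 and 14.5. De-differentiated-like cells had 12.3 and 13.8. In these 3 classes the sum was lower than in the remaining classes of the same library. Interferon-like cells had 51.5 in control and 26.1 in *Trf2 T188A*. The control sum includes 26 cells with a UMI of *Cd74*, a class II gene, which had higher member levels. Without these cells the control levels were 4.12 for *H2-K1*, 11.4 for *B2m* and 2.53 for *Psmb8*. In *Trf2 T188A* they were 3.005, 11.3 and 1.37. Endothelial-like cells had 83.5 and 83.3, the highest of the smooth muscle and endothelial classes.

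**Figure D1:**
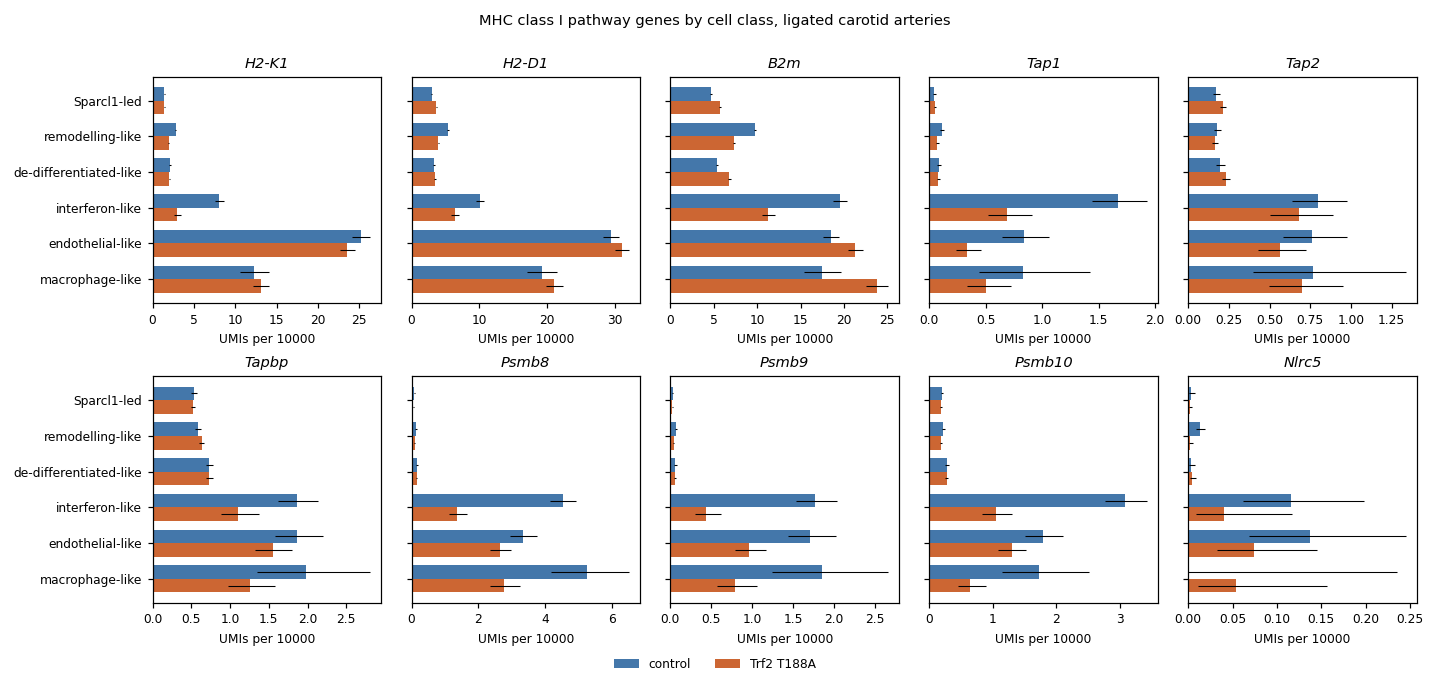
UMIs per 10000 of each member by class in the 2 ligation libraries (blue control, orange *Trf2 T188A*; bars with exact 95% Poisson intervals). *H2-K1* is highest in endothelial-like cells, at 25.2 and 23.5.

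The next comparison asked how the members of interferon-like smooth muscle cells stand to those of *Sparcl1*-led cells of the same library. Interferon-stimulated genes helped to form the interferon-like class, so their own level there is no result. In control, 10 of 10 passing members were higher past the limit, beside 19.2% of all passing genes. In *Trf2 T188A*, 9 of 9 were higher, beside 22.2%. Of these, 6 members passed in both classes in each library. *Tap1*, *Psmb8* and *Psmb9*, and in control *Nlrc5*, passed through the interferon-like class alone, where they are high, so their counts add no support. The median log2 ratio of the 6 was 2.14 in control and 1.10 in *Trf2 T188A*, and that of all genes passing in both was −0.05 and −0.07.

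*H2-K1*, a heavy chain, had 1.40 UMIs per 10000 in *Sparcl1*-led and 8.09 in interferon-like control cells, a log2 ratio of 2.53 (2.41 to 2.64). In *Trf2 T188A* it had 1.40 and 3.005, a ratio of 1.10 (0.90 to 1.29). The gene was thus 5.77-fold higher in the interferon-like class of the control library and 2.14-fold higher in that of the *Trf2 T188A* library. *H2-D1*, the other heavy chain, rose from 2.97 to 10.1 in control (1.77) and from 3.63 to 6.40 in *Trf2 T188A* (0.82). *B2m*, the light chain, rose from 4.69 to 19.5 (2.06) and from 5.73 to 11.3 (0.98). All 3 surface genes were higher in the interferon-like class of both libraries.

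*Tap1*, a transporter subunit, had 0.0442 and 1.67 in control, 37.8-fold higher in interferon-like cells, and 0.0484 and 0.691 in *Trf2 T188A*, 14.3-fold higher. *Tap2*, its partner, was higher by 2.22 in control and 1.67 in *Trf2 T188A*. *Tapbp*, encoding tapasin, was higher by 1.79 and 1.09. *Tap2* and *Tapbp*, which passed in both classes, were higher in the interferon-like class of each library. *Tap1* passed through that class alone, so its ratio adds no support.

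*Psmb8*, an immunoproteasome subunit, had 0.0754 and 4.51 UMIs per 10000 in control, a log2 ratio of 5.90 (5.60 to 6.22). In *Trf2 T188A* it had 0.0588 and 1.37, a ratio of 4.54 (4.17 to 4.91). *Psmb9* was higher by 6.04 and 4.28, and *Psmb10* by 3.96 and 2.55. Of the 3 subunits *Psmb10* passed in both classes, and it was higher in interferon-like cells of both libraries. The constitutive subunits *Psmb5*, *Psmb6* and *Psmb7* had ratios of −0.00, −0.16 and 0.12 in control and −0.26, −0.31 and −0.25 in *Trf2 T188A*. *Nlrc5* rested on 4 UMIs in *Sparcl1*-led and 13 in interferon-like control cells (5.39, 3.70 to 7.47), and in *Trf2 T188A* on 5 and 3 UMIs (4.48, 1.79 to 6.84), where it did not pass the detection limit.

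*Psmb8* had a UMI in 68.8% of control and 54.2% of *Trf2 T188A* interferon-like cells. After thinning each to 5000 UMIs, leaving out 8 and 2 shallower cells of the class, the shares were 60.6% (50.5% to 70.0%) and 36.8% (24.4% to 50.7%). In *Sparcl1*-led cells the thinned shares were 3.61% and 2.58%, and the unthinned ones 5.85% and 6.39%. Median depth was 8889 and 11394 UMIs in interferon-like and 8649 and 11485 in *Sparcl1*-led cells. *Tap1* had thinned shares of 49.0% (unthinned 60.7%) and 29.8% (49.2%) in interferon-like cells, against 2.62% and 2.16% in *Sparcl1*-led cells.

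Among class I partner genes, 9 of 13 passing were higher in interferon-like control cells. Of those with at least 50 UMIs in each group, *H2-T23* (4.06) and *H2-Q4* (3.81) were highest, *Calr* (0.02) and *Canx* (−0.17) lowest. In *Trf2 T188A*, 9 were higher and 1 lower of 13. Of the class I regulators, 12 were higher and 2 lower of 18 in control (*Irf7* 4.67, *Ifngr2* −0.05, *Socs3* −0.16). In *Trf2 T188A*, 12 were higher and 1 lower of 18. Of all passing genes, 19.2% were higher in control and 22.2% in *Trf2 T188A*. Partners and regulators passing in both classes were not counted, and those passing through the interferon-like class alone add no support. Of the class II genes, 7 of 7 were higher in control, summing to 8.69 UMIs per 10000 against 0.0629, and 0 passed in *Trf2 T188A*. All 7 passed through the interferon-like class alone, where they are high, so their count adds no support. Interferon-stimulated genes, which helped to form the class, were higher in 17 of 17 cases in both libraries, which is no result.

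*Cd74*, a class II gene, was singled out after its values were seen. In control interferon-like cells it had 495 UMIs, in 26 of 112 cells (23.2%; 21.2% of thinned cells), of which 16 held at least 5. A *Cd74* UMI was found in 0.920% of *Sparcl1*-led (thinned 0.708%), 2.04% of de-differentiated-like and 4.55% of remodelling-like control cells (thinned 3.24%). Macrophage-like control cells had 75.03 UMIs per 10000 of it, and the part of free RNA was not tested. In *Trf2 T188A* it had 0 UMIs in 59 cells, which allows up to 6.06% of cells with a UMI. In the 26 cells *H2-K1* had 20.1 UMIs per 10000, *B2m* 44.04 and *Psmb8* 10.5, against 4.12, 11.4 and 2.53 in the other 86 cells. Without cells holding a *Cd74* UMI, the control ratio of interferon-like to *Sparcl1*-led cells was 1.57 for *H2-K1*, 1.29 for *B2m* and 5.08 for *Psmb8*, and 9 of 9 passing members were higher in each library, beside 20.6% of genes in control and 22.2% in *Trf2 T188A*. With all cells kept, 6 members passed in both classes. Those passing in both were not counted without *Cd74* cells, and members passing through the interferon-like class alone add no support.

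The following comparison asked whether the *Trf2 T188A* transgene went with different member levels in cells of 1 class. In interferon-like cells, 9 of 10 passing members were lower in *Trf2 T188A* than in control, beside 27.6% of passing genes lower and 29.3% higher. Of the 10, 9 passed in both groups, and 8 had intervals below 0. The members' median log2 ratio was −1.35 and that of all genes 0.00. Among those passing in both groups the medians were −1.27 and −0.04. *Nlrc5* passed through the control class alone, where it is high, so its count adds no support. The 26 control cells with a *Cd74* UMI are kept unless stated.

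*H2-K1* had 8.09 UMIs per 10000 in control and 3.005 in *Trf2 T188A*, a log2 ratio of −1.43 (−1.65 to −1.22). *H2-D1* had 10.1 and 6.40 (−0.66, −0.82 to −0.51). *B2m* had 19.5 and 11.3 (−0.79, −0.90 to −0.67). Without *Cd74* cells, 86 control and 59 *Trf2 T188A* cells remained, and *H2-K1* had 4.12 and 3.005 (−0.45, −0.70 to −0.21). *H2-D1* then had 6.24 and 6.40, a ratio of 0.03 (−0.15 to 0.22), and *B2m* 11.4 and 11.3, a ratio of −0.01 (−0.15 to 0.12). *H2-K1* was thus lower with and without these cells, and *H2-D1* and *B2m* with them. Since leaving them out takes cells with high class I levels from the control library alone, the ratios without them do not show what the difference rests on.

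*Tap1* had 1.67 in control and 0.691 in *Trf2 T188A* (−1.27, −1.75 to −0.82), and −0.68 (−1.20 to −0.17) without *Cd74* cells. *Tap2* had 0.795 and 0.678 (−0.23, −0.76 to 0.28), and turned to 0.31 (−0.29 to 0.92) without *Cd74* cells, both intervals spanning 0. *Tapbp* had 1.87 and 1.10 (−0.76, −1.14 to −0.39), and its interval spanned 0 without *Cd74* cells (−0.35, −0.77 to 0.07). Of the 3 loading genes, *Tap1* was lower in *Trf2 T188A* with and without these cells.

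*Psmb8* had 4.51 in control and 1.37 in *Trf2 T188A*, a log2 ratio of −1.72 (−2.04 to −1.41). *Psmb9* had 1.77 and 0.439 (−2.01, −2.59 to −1.47), and *Psmb10* 3.08 and 1.05 (−1.55, −1.93 to −1.20). These 3 subunits were lower in the *Trf2 T188A* class. Without *Cd74* cells the ratios were −0.89 (−1.24 to −0.54), −1.32 (−1.94 to −0.73) and −0.76 (−1.18 to −0.36). *Psmb5* had 1.35 and 1.16 (−0.22), *Psmb6* 2.12 and 1.85 (−0.20) and *Psmb7* 0.974 and 0.824 (−0.24), each with an interval spanning 0. Without *Cd74* cells, 6 of 9 passing members were lower and 1 was higher, beside 28.0% of genes lower and 29.7% higher. *Nlrc5* had 13 UMIs in control and 3 in *Trf2 T188A* (−1.54, −3.99 to 0.32), an interval that spans 0.

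The UMIs of *Psmb8* were 3.34 times (2.78 to 4.04) those of *Psmb5* in interferon-like control cells and 1.18 times (0.881 to 1.59) in *Trf2 T188A*. *Psmb9* to *Psmb6* stood at 0.835 (0.688 to 1.01) and 0.237 (0.157 to 0.349). *Psmb10* to *Psmb7* stood at 3.17 (2.54 to 3.96) and 1.27 (0.902 to 1.81). With all cells kept, in each pair the immunoproteasome subunit was lower against its constitutive partner in the *Trf2 T188A* class. In control, the 26 cells with a *Cd74* UMI held 292 of the 505 *Psmb8* UMIs. They also held 106 of 198 for *Psmb9* and 195 of 345 for *Psmb10*. The ratios to constitutive subunits were not calculated without these cells. In *Sparcl1*-led cells *Psmb8* to *Psmb5* was 0.0557 and 0.0424.

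**Figure D2:**
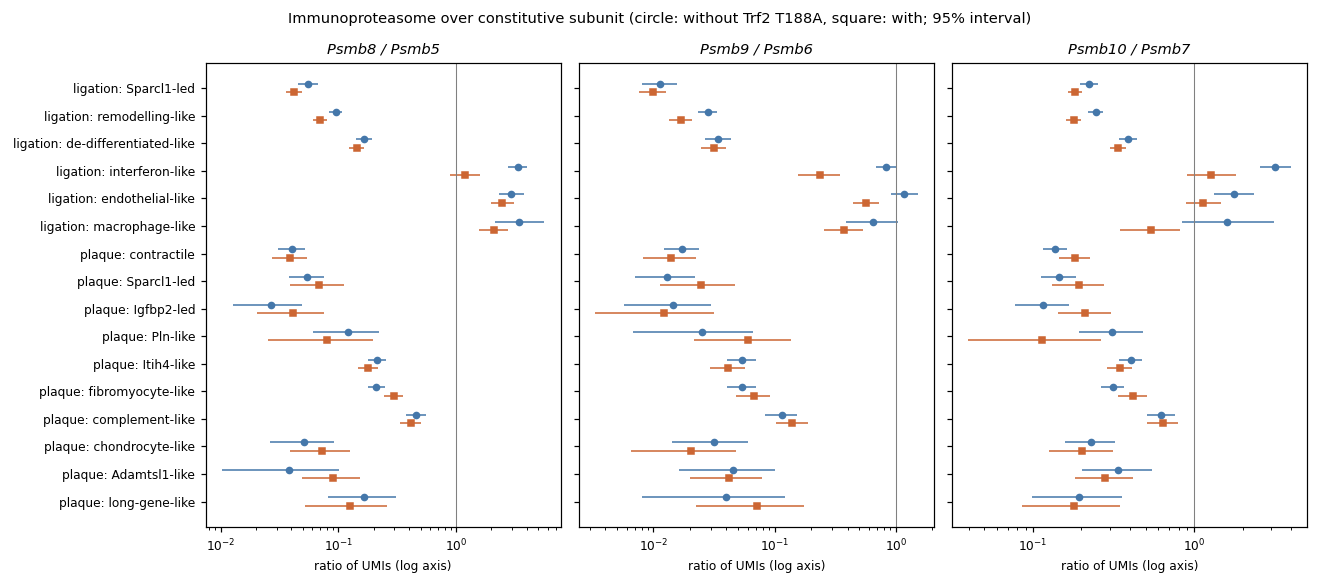
Ratio of each immunoproteasome subunit's UMIs to those of the constitutive subunit it replaces, on a log axis, by class and library (circles without and squares with *Trf2 T188A*; lines, exact 95% intervals). *Psmb8* to *Psmb5* was 3.34 in control and 1.18 in *Trf2 T188A* interferon-like cells, all cells kept.

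Of 13 passing class I partners, 9 were lower in *Trf2 T188A* interferon-like cells. For this and the next lists, 27.6% of all passing genes were lower and 29.3% higher. Among those with at least 50 UMIs in each group, *Canx* (−0.06) and *Pdia3* (−0.28) were highest, *Psme2* (−1.12) and *H2-T23* (−1.27) lowest. Of 18 passing regulators, 7 were lower and 2 higher (*Ifngr2* 0.33, *Nfkb1* 0.17, *Irf1* −1.49). Of 3 passing cytosolic DNA-sensing genes, 2 were lower. Of 17 interferon-stimulated genes, 9 were lower and 1 higher (*Ifit1* 0.68, *Ifit3* 0.23, *Cxcl10* −2.20, *Gbp2* −2.73). Class II genes were lower in 7 of 7 cases, summing to 8.69 and 0.0931 UMIs per 10000. All 7 passed through the control class alone, where they are high, so their count adds no support.

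Markers of other cell types were read in the same cells. Of 12 macrophage markers, 5 were found in control and 2 in *Trf2 T188A* interferon-like cells, summing to 0.125 and 0.0532 UMIs per 10000, with *Cd68* the most abundant and *Lyz2*, *Tyrobp*, *Fcer1g*, *Ctss*, *Ms4a7*, *Adgre1* and *Ptprc* at 0 in both. The 7 T and NK cell markers were at 0 in both. Of 9 endothelial markers, 4 were found in each, summing to 0.286 and 0.239 (most abundant *Pecam1*; *Cdh5*, *Cldn5*, *Egfl7*, *Kdr* and *Vwf* at 0), and fibroblast markers summed to 0.483 and 0.691 (*Lama2*). All 12 contractile markers were found, summing to 376.0 and 361.5 (*Acta2*). The part of other cell types in the result was not tested beyond leaving out cells with immune markers.

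In remodelling-like cells, whose summed level was above that of *Sparcl1*-led cells in both libraries, 4 of 6 passing members were lower in *Trf2 T188A*, beside 12.05% of genes lower and 9.36% higher. All 6 passed in both groups. *H2-K1* had 2.79 and 1.96 (−0.51, −0.57 to −0.45), *H2-D1* 5.38 and 3.96 (−0.44, −0.49 to −0.40), and *B2m* 9.74 and 7.37 (−0.40, −0.43 to −0.37). The surface genes were thus lower in *Trf2 T188A* in this class. *Psmb10* had 0.217 and 0.178 (−0.29, −0.49 to −0.09). *Tap2* (−0.13) and *Tapbp* (0.11) were not past the limit, and *Tap1*, *Psmb8*, *Psmb9* and *Nlrc5* did not pass the detection limit, with ratios of −0.66, −0.40, −0.74 and −2.56 (*Nlrc5*: 25 and 5 UMIs).

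Leaving out remodelling-like cells with a *Cd74* UMI (92 control and 60 *Trf2 T188A* cells) gave −0.49 for *H2-K1*, −0.37 for *H2-D1* and −0.32 for *B2m*, with 3 of 6 members lower, beside 12.8% of genes. The constitutive subunits *Psmb5*, *Psmb6* and *Psmb7* had ratios of 0.03, 0.00 and 0.17. Of 11 passing class I partners, 0 were past the limit. Of 16 regulators, 1 was higher and 2 lower (*Socs1* 0.59, *Ifnar2* 0.11, *Rela* −0.35), and of 5 interferon-stimulated genes 1 was higher and 1 lower. Macrophage markers summed to 0.106 and 0.0878 (10 and 11 of 12 found; most abundant *Cd68*). Their part in the result was not tested beyond the alternative without immune-marker cells.

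In *Sparcl1*-led cells, 2 of the 3 surface genes went the other way. There 3 of 6 passing members, all 6 passing in both groups, were higher in *Trf2 T188A*, beside 7.29% of genes higher and 5.63% lower. *H2-D1* had 2.97 and 3.63 (0.29, 0.24 to 0.34), *B2m* 4.69 and 5.73 (0.29, 0.25 to 0.33), and *Tap2* 0.171 and 0.213 (0.32, 0.10 to 0.54). *H2-K1* had 1.40 in both (−0.00, −0.08 to 0.08). *Tapbp* (−0.06) and *Psmb10* (−0.14) were not past the limit. *Tap1*, *Psmb8*, *Psmb9* and *Nlrc5* did not pass the detection limit. With a pseudocount of 1 per 10000 and a mean over cells, 0 members of this class were past the limit.

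In de-differentiated-like cells, 1 of 7 passing members, all 7 in both groups, was higher in *Trf2 T188A*, a share near the 10.1% of genes higher and 9.60% lower, which is no result for the list. The count was 2 under 7 alternatives. That member was *B2m*, with 5.40 and 6.80 (0.33, 0.29 to 0.38). *H2-K1* (−0.05) and *H2-D1* (0.07) were not past the limit. Nor were *Tap2* (0.23), *Tapbp* (−0.00), *Psmb8* (−0.02) and *Psmb10* (−0.04).

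Endothelial-like cells give the comparison outside smooth muscle. There 7 of 10 passing members, all 10 in both groups, were lower in *Trf2 T188A*, beside 32.4% of genes lower and 25.4% higher. *H2-K1* (−0.10), *H2-D1* (0.08) and *B2m* (0.21) were not past the limit. *Tap1* had 0.835 and 0.333 (−1.33, −1.96 to −0.72). *Psmb8* had 3.32 and 2.64 (−0.33, −0.57 to −0.08), *Psmb9* 1.71 and 0.961 (−0.83, −1.21 to −0.45) and *Psmb10* 1.78 and 1.29 (−0.46, −0.81 to −0.12). Without *Cd74* cells, which were 37 of 62 and 42 of 65, the 3 subunits were at −0.85, −1.15 and −0.92. *Tap2* (−0.43), *Tapbp* (−0.27) and *Nlrc5* (−0.89; 11 and 8 UMIs) had intervals spanning 0, and *Tapbp* turned to 0.09 with cells thinned. *Psmb5*, *Psmb6* and *Psmb7* had ratios of −0.07, 0.21 and 0.17, and 15 of 16 interferon-stimulated genes were lower.

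**Figure D3:**
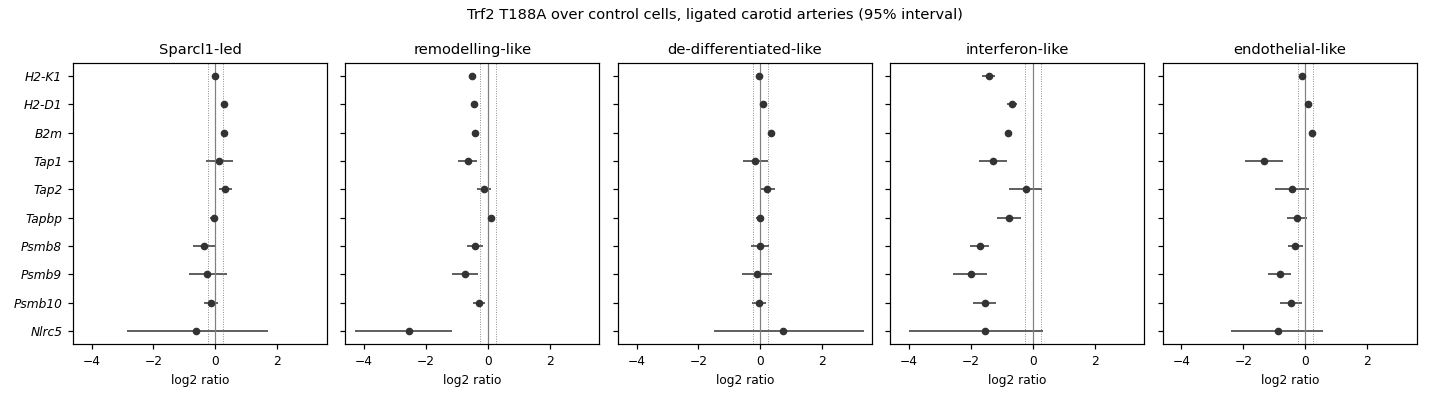
Log2 ratio of *Trf2 T188A* to control for each member in 5 ligation classes, with exact 95% intervals and dotted lines at 0.25 in both directions, all cells kept. *H2-K1* was lower by 1.43 in interferon-like and by 0.51 in remodelling-like cells.

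Pooled over all smooth muscle classes (4886 control and 5270 *Trf2 T188A* cells), *H2-K1* had 2.32 and 1.75 UMIs per 10000 (−0.41, −0.44 to −0.37) and *Psmb8* 0.227 and 0.110 (−1.05, −1.19 to −0.91). The pooled ratio was −0.18 for *H2-D1* and −0.15 for *B2m*. Interferon-like cells held 35.8% of the control library's *Psmb8* UMIs and 8.87% of those in *Trf2 T188A*, beside 2.35% and 1.12% of all UMIs. For *B2m* they held 6.06% and 1.81%. In control, the 26 interferon-like cells with a *Cd74* UMI held 292 of the 505 *Psmb8* and 1225 of the 2182 *B2m* UMIs of the class. Without the interferon-like class *Psmb8* was lower by 0.36 (−0.53 to −0.19) and *H2-K1* by 0.33.

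Plaque cells fell into 12 classes. The contractile class held 447 *ApoE-/-* and 216 *Trf2 T188A*/*ApoE-/-* cells, the *Sparcl1*-led 223 and 72, the *Igfbp2*-led 90 and 59, the *Itih4*-like 191 and 141, and the fibromyocyte-like 159 and 128. Complement-like cells numbered 109 and 82, long-gene-like 81 and 103, chondrocyte-like 81 and 63, *Adamtsl1*-like 42 and 40, and *Pln*-like 45 and 24. The fibroblast-like class (21 and 1) and the *Igfbp3*-led class (13, or 0.866%, and 0) had too few cells for a comparison. A Confetti UMI was found in 38.1% of *ApoE-/-* fibroblast-like cells and in 0 of 13 *Igfbp3*-led cells.

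Contractile cells held 9.41 UMIs per 10000 of the 10 members together without the transgene and 10.3 with it. Complement-like cells had 19.0 and 16.9, fibromyocyte-like cells 16.8 and 19.2, and *Itih4*-like cells 13.2 and 14.9. In these 3 classes the sum was above that of contractile cells in both libraries. Chondrocyte-like cells had 8.002 and 9.17. *Sparcl1*-led cells had 9.16 and 10.1, *Igfbp2*-led 9.49 and 10.9, *Pln*-like 10.1 and 10.4, *Adamtsl1*-like 11.8 and 12.7, and long-gene-like 8.44 and 8.39. *Igfbp3*-led cells of the *ApoE-/-* library had 42.7 and fibroblast-like cells 11.7.

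**Figure D4:**
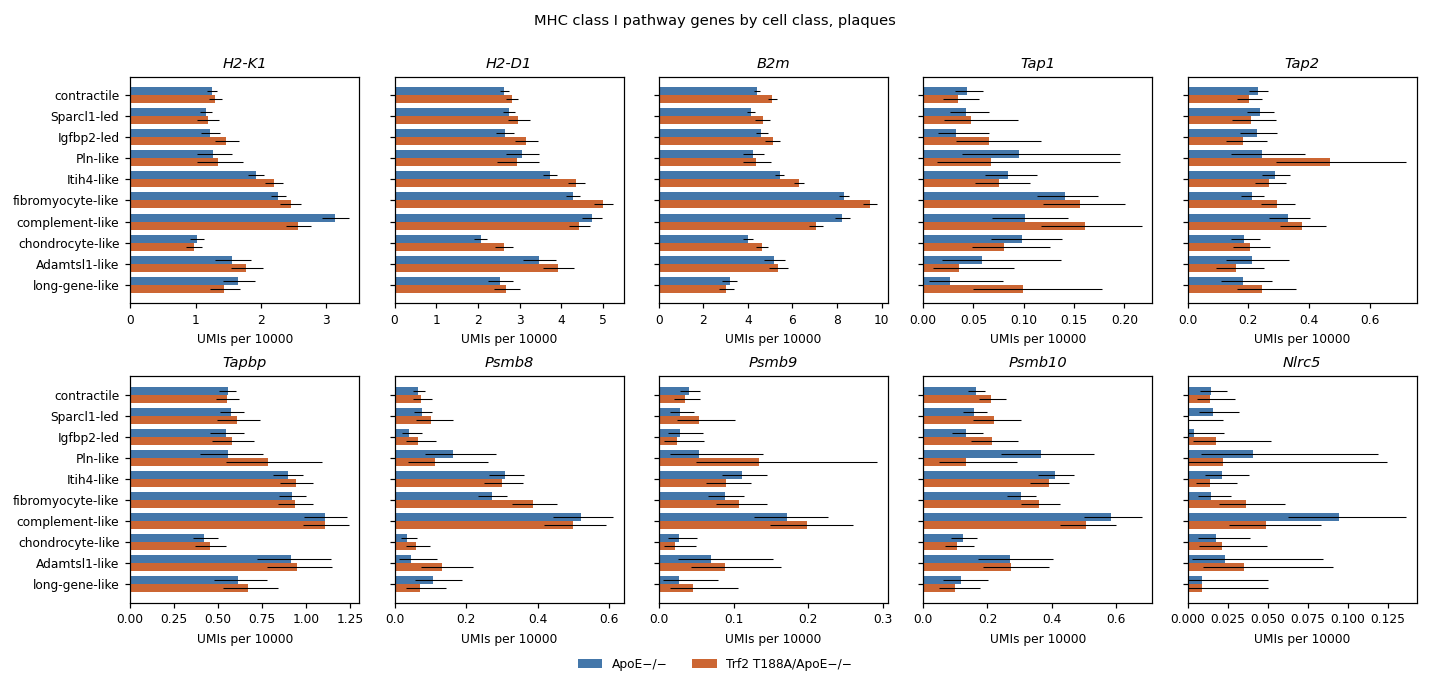
UMIs per 10000 of each member by class in the 2 plaque libraries (blue *ApoE-/-*, orange *Trf2 T188A*/*ApoE-/-*; bars with exact 95% Poisson intervals). *Psmb8* stood at 0.522 and 0.499 in complement-like and at 0.0656 and 0.0754 in contractile cells.

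How member levels of modulated plaque smooth muscle cells stand to those of contractile cells was read in each library. In complement-like cells, 10 of 10 passing members were higher in *ApoE-/-*, beside 36.2% of genes, and 9 of 9 in *Trf2 T188A*/*ApoE-/-*, beside 36.3%. In fibromyocyte-like cells, 8 of 9 were higher in *ApoE-/-*, beside 38.2%, and 9 of 9 in *Trf2 T188A*/*ApoE-/-*, beside 36.1%. In *Itih4*-like cells, 9 of 9 were higher in each, beside 23.9% and 25.9%. In each of these comparisons 7 members passed in both groups. The others passed through the modulated class alone, where they are high, so their counts add no support. The median log2 ratio of the 7 was 0.998 and 0.98 in complement-like, 0.86 and 0.83 in fibromyocyte-like, and 0.62 and 0.76 in *Itih4*-like cells. That of all genes passing in both lay between −0.07 and −0.01. With a mean over cells and a pseudocount of 1 per 10000 together the count fell to between 4 and 6 in each of the 6 comparisons. With cells thinned the *Itih4*-like count in *ApoE-/-* fell from 9 to 5.

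In contractile cells *H2-K1* had 1.25 UMIs per 10000 without and 1.30 with the transgene, against 3.13 and 2.57 in complement-like cells, log2 ratios of 1.33 and 0.98. In fibromyocyte-like cells its ratios were 0.86 and 0.92, and in *Itih4*-like cells 0.62 and 0.76. *H2-K1* was thus higher in the 3 modulated classes of both libraries. *H2-D1* was higher by 0.85 and 0.65 in complement-like, 0.70 and 0.83 in fibromyocyte-like, and 0.50 and 0.63 in *Itih4*-like cells. *B2m*, at 4.41 and 5.09 in contractile cells, had 8.24 and 7.04 in complement-like (0.90 and 0.47) and 8.31 and 9.49 in fibromyocyte-like cells (0.91 and 0.90). In *Itih4*-like cells *B2m* was higher by 0.30 and 0.31.

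*Tap1*, at 0.0437 and 0.0346 in contractile cells, had 0.101 and 0.161 in complement-like cells (1.21 and 2.22). In fibromyocyte-like cells it had 0.141 and 0.156 (1.69 and 2.17). *Tap1* passed through the modulated class alone in these comparisons, and so did *Psmb9*. *Tap2* was higher by 0.51 and 0.89 in complement-like cells and stood at −0.14 and 0.54 in fibromyocyte-like cells. *Tapbp* was higher by 0.998 and 1.01 in complement-like, 0.73 and 0.77 in fibromyocyte-like, and 0.69 and 0.78 in *Itih4*-like cells.

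*Psmb8* had 0.0656 and 0.0754 in contractile against 0.522 and 0.499 in complement-like cells, log2 ratios of 2.99 (2.56 to 3.44) and 2.73 (2.19 to 3.29). In fibromyocyte-like cells its ratios were 2.05 and 2.36, and in *Itih4*-like cells it had 0.310 and 0.301 UMIs per 10000. It was the member with the highest ratio in complement-like cells of both libraries. *Psmb9* was higher by 2.08 and 2.52 and *Psmb10* by 1.82 and 1.26 in complement-like cells. *Psmb5*, *Psmb6* and *Psmb7* went the other way there, at −0.53, −0.65 and −0.36 in *ApoE-/-* and −0.68, −0.80 and −0.56 in *Trf2 T188A*/*ApoE-/-*. *Psmb8* to *Psmb5* was 0.461 and 0.414 in complement-like and 0.0401 and 0.0390 in contractile cells. *Nlrc5* had a ratio of 2.69 (1.72 to 3.73) in *ApoE-/-* complement-like cells, and in *Trf2 T188A*/*ApoE-/-* 1.77 from 7 and 13 UMIs without passing the detection limit.

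With cells thinned to 8000 UMIs, leaving out 92 *ApoE-/-* and 122 *Trf2 T188A*/*ApoE-/-* cells, *Psmb8* was found in 32.4% and 24.7% of complement-like cells (unthinned 57.8% and 61.0%). In contractile cells it was found in 3.88% and 5.26% (10.96% and 12.04%). Median depth was 25221 and 30019 UMIs in complement-like and 20998 and 23964.5 in contractile cells. Class I partners were higher in 10 of 13 cases in *ApoE-/-* complement-like cells (*H2-T23* 2.54, *H2-Q4* 2.29, *Mr1* 0.13, *Psme3* −0.03) and 8 of 13 in *Trf2 T188A*/*ApoE-/-*. Regulators were higher in 12 and lower in 3 of 21 cases in *ApoE-/-* (*Nfkb1* 2.65, *Irf1* 2.27, *Rfxap* −0.12, *Irf3* −0.40). Of all passing genes, 36.2% were higher in *ApoE-/-* and 36.3% in *Trf2 T188A*/*ApoE-/-*. Partners and regulators passing in both classes were not counted. Class II genes were higher in 6 of 6 cases in each library, but passed through the complement-like class alone, where they are high. Their count thus adds no support.

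Macrophage markers summed to 0.353 and 0.315 UMIs per 10000 in complement-like cells (10 of 12 found in each; most abundant *Cd14*; *Ptprc* at 0) and to 0.0937 and 0.136 in contractile cells. T and NK cell markers summed to 0.0101 in *ApoE-/-* complement-like cells and were at 0 in *Trf2 T188A*/*ApoE-/-*. Endothelial markers summed to 1.68 in both (*Pecam1*; *Cdh5*, *Cldn5* and *Kdr* at 0), against 0.466 and 0.442 in contractile cells. Fibroblast markers summed to 5.18 and 4.10 (7 of 7; *Lama2*), against 1.21 and 1.08. In fibromyocyte-like cells macrophage markers summed to 0.134 and 0.192, with *Adgre1* and *Ptprc* at 0. The part of other cell types was not tested beyond the alternative without immune-marker cells. It left out 7 *ApoE-/-* and 9 *Trf2 T188A*/*ApoE-/-* complement-like cells, and 16 and 9 fibromyocyte-like cells.

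Chondrocyte-like cells differed from contractile cells in most genes, their median log2 ratio over all passing genes being −0.29 in the *ApoE-/-* library and −0.30 in the other. Of 8 passing members, 6 were lower and 1 higher in *ApoE-/-*, beside 51.6% of genes lower, and 4 lower and 1 higher in *Trf2 T188A*/*ApoE-/-*, beside 52.3%. Of the 8, 7 passed in both groups. The median of the 8 was −0.34 and −0.21, near the shift of all genes, which is no result. *Tap1*, at 1.17 (0.47 to 1.86) and 1.22 (0.20 to 2.26), passed through the chondrocyte-like class alone. *Psmb8* had −0.87 and −0.34 but turned to 1.39 and 1.73 at 0.5 times the clustering resolution, where *H2-K1* turned from −0.29 and −0.42 to 0.56 and 0.54.

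Whether the transgene went with different member levels in plaque cells was read class by class. In contractile cells, 1 of 7 passing members was past the limit in either direction, beside 23.8% of genes: *Psmb10*, higher by 0.36. In *Sparcl1*-led cells it was 2 of 7, beside 39.9%: *Psmb8* (0.41) and *Psmb10* (0.49). All 7 passed in both groups in each. In *Itih4*-like cells 1 of 9, all 9 in both, was past it, beside 33.9% (*Psmb9*, −0.32, which turned to 0.20 with the members among the clustering genes). *Nlrc5* in *Sparcl1*-led cells had 8 UMIs in the *ApoE-/-* library and none in the other. Counted in 1 direction, 10.8% of genes were higher in contractile and 17.4% in *Sparcl1*-led cells, and 18.6% were lower in *Itih4*-like cells. The *Sparcl1*-led count went to 5 without the top 5% of Scrublet doublet scores and to 0 with a mean over cells and a pseudocount of 1. The *Itih4*-like count went to 4 with a mean over cells and with cells thinned. These counts depend on the processing and gave no result for the list.

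In fibromyocyte-like cells, 4 of 9 passing members, all 9 in both groups, were past the limit, beside 39.2% of genes in either direction. All 4 were higher in *Trf2 T188A*/*ApoE-/-*, beside 14.99% of genes higher, and the count fell to 2 at 1.5 times the resolution and to 0 with a mean over cells and a pseudocount of 1. *Tap2* had 0.211 and 0.294 (0.48, 0.10 to 0.85), and *Psmb8* 0.272 and 0.387 (0.51, 0.18 to 0.84). These 2 members were higher in *Trf2 T188A*/*ApoE-/-*, with intervals above 0. The other 2 were *Psmb9* (0.28), which turned to −0.13 with cells thinned, and *Psmb10* (0.25), which turned to −0.13 with a mean over cells. *H2-D1* had 4.28 and 5.01 (0.23) and *B2m* 8.31 and 9.49 (0.19), both short of the limit.

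In complement-like cells, 3 of 10 passing members, 9 in both groups, were past the limit, beside 42.9%. The count was 5 with cells thinned, without immune-marker cells or with members among the clustering genes, and 0 with a mean over cells and a pseudocount of 1. *H2-K1* had 3.13 and 2.57 (−0.29, −0.43 to −0.14) and was lower in *Trf2 T188A*/*ApoE-/-*. The other 2 past it, *Tap1* (0.67, −0.03 to 1.40) and *Nlrc5* (−0.95, −2.02 to 0.04), had intervals spanning 0. *B2m* had 8.24 and 7.04 (−0.23, −0.32 to −0.14), short of the limit. In *Igfbp2*-led cells, 6 of 8 members, 7 in both, were past the limit, 5 higher and 1 lower, beside 45.9% in either direction and 22.5% higher. *H2-K1* was higher there by 0.27 (0.02 to 0.52) and *H2-D1* by 0.26. *Psmb8* (0.66) turned to −0.03 at 1.5 times the resolution, where 2 members were past the limit. The count was 3 with cells thinned, where *Tap2* turned from −0.30 to 0.05, and 0 with a mean over cells and a pseudocount of 1.

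In chondrocyte-like cells, 3 of 8 members, all 8 in both groups, were past the limit, beside 53.3%. *H2-D1* was higher by 0.34 (0.19 to 0.50), while *Psmb8* (0.73) and *Tap1* (−0.28) turned direction under other settings. In long-gene-like cells, 2 of 6, 5 in both, were past it, beside 54.7% (*Tap2* 0.44, *Psmb8* −0.58), and both turned with a mean over cells. In *Pln*-like cells, 6 of 9, 8 in both, were past it, beside 65.3%, 3 higher and 3 lower. *Psmb10* alone of the 6 had an interval clear of 0, at 0.366 and 0.134 (−1.45, −3.01 to −0.14). In *Adamtsl1*-like cells, 4 of 9, 8 in both, were past it, beside 59.05%, and none of the 4 had an interval clear of 0. The shares in these 4 classes were near or below those of all genes.

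Pooled over all smooth muscle classes of the plaques (1468 *ApoE-/-* and 928 *Trf2 T188A*/*ApoE-/-* cells), *Psmb8* had 0.170 and 0.215 UMIs per 10000 (0.34, 0.17 to 0.51). *H2-K1* was higher by 0.12, *H2-D1* by 0.20 and *B2m* by 0.16 in *Trf2 T188A*/*ApoE-/-*, short of the limit. The 10 members summed to 11.8 and 13.2.

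Within classes, cells were described by Spearman correlations of thinned UMIs, without p, and the cells of a class share 1 library. *H2-D1* with *B2m* gave 0.68 over 104 interferon-like control cells and 0.51 over 1913 remodelling-like control cells, against 0.26 over 1798 in *Trf2 T188A*. In *Sparcl1*-led cells it was 0.07 over 1412 and 0.15 over 2171 cells. In plaques it was 0.47 over 154 and 0.58 over 112 fibromyocyte-like cells, and 0.09 over 438 and 0.21 over 190 contractile cells. Cells with a *Cd74* UMI were kept. In remodelling-like control cells these had 18.03 UMIs per 10000 of *H2-D1* and 29.4 of *B2m*, against 4.61 and 8.54 in the others. In *Trf2 T188A* they had 12.3 and 19.2, against 3.57 and 6.82. Their part in the correlations was not tested. Remodelling-like cells with a *Cdkn2a* UMI had higher *H2-K1* than those without, at 5.46 against 2.63 (1.06; 107 and 1806 cells) in control and 3.55 against 1.78 (0.99; 137 and 1661 cells) in *Trf2 T188A*. In de-differentiated-like cells this did not hold, at −0.04 (−0.33 to 0.23; 50 and 1092 cells) in control and −0.34 (−0.59 to −0.10; 69 and 1033 cells) in *Trf2 T188A*, where *H2-D1* was also lower, by 0.49 (−0.69 to −0.30).

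Across class and library profiles, the genes outside the lists most like the summed members in ligation (11 profiles, 10901 genes, Pearson r) were *Sp100* and *Ly6e* at 0.97, *Mrps10* at 0.96, *Serpinb9*, *Casp4*, *Apobec3* and *N4bp1* at 0.95, and *Eif4e3*, *Il15* and *Lgals9* at 0.94. In plaques (19 profiles, 13140 genes) they were *Plvap* (0.961), *Rnase4* (0.918), *Ube2l6* (0.916), *Nradd* (0.908), *1110008P14Rik* (0.904), *Rnpep* (0.898), *Glmp* (0.892), *Cxcl16* (0.890), *Slc39a1* (0.889) and *Tnfrsf1a* (0.888). Profiles of 1 library share that library, and r was given no p. Of the ligation genes, *N4bp1* was highest in macrophage-like and all others in endothelial-like cells. The summed members were highest in these non-muscle profiles too, and r over smooth muscle profiles alone was not calculated.

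Of the 10 members, 7 lie on chromosome 17 (GRCm38): *Tapbp* (33915899-33929292, + strand), *H2-K1* (33996017-34000347, −), *Psmb9* (34181987-34187764, −), *Tap1* (34187553-34197225, +), *Psmb8* (34197721-34201454, +), *Tap2* (34203527-34216321, +) and *H2-D1* (35262730-35267499, +). *B2m* lies on chromosome 2 (122147686-122153083, +), and *Nlrc5* (94434356-94527272, +) and *Psmb10* (105935735-105938444, −) on chromosome 8. *Psmb9* and *Tap1* overlap at their starts, and *Tap1* and *Psmb8* lie 495 bases apart. A 3′ tag of *H2-D1* may match other genes, since 9.53% of the 50-base words of its last 500 bases occur elsewhere. For *H2-K1* the share was 0.443%, with *H2-D1*, and for each other member 0.

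Promoters of 4 members are shown to let motif positions be read, from the RefSeq assembly GRCm38.p6, 300 bases each, with motifs in capitals: *H2-K1* (chr17:34000298-34000597, −), *H2-D1* (chr17:35262844-35263143, +), *B2m* (chr2:122147437-122147736, +) and *Tap1* (chr17:34187306-34187605, +). Motifs were sought on both strands. Of 32851 promoters, 3.44% hold an ISRE (2 GAAA words with 2 bases between), 7.52% an IRF pair (GAANNGAAA), 8.30% a GAS element (TTCNNNGAA), 4.51% an NF-κB site and 37.4% an inverted CCAAT box (ATTGG). The *B2m* promoter held an ISRE, an NF-κB site and a CCAAT box. The promoters of *H2-K1* and *H2-D1* each held an IRF pair, an NF-κB site and 2 CCAAT boxes. That of *Psmb8* held a GAS element, those of *Tap1* and *Psmb9* 1 CCAAT box each and that of *Tapbp* 2, and that of *Psmb10* held none of these motifs. *Tap1* and *Psmb9* share 275 bases of promoter, and no promoter was matched for *Tap2* and *Nlrc5*. A match is a description of sequence and shows no binding.

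H2-K1: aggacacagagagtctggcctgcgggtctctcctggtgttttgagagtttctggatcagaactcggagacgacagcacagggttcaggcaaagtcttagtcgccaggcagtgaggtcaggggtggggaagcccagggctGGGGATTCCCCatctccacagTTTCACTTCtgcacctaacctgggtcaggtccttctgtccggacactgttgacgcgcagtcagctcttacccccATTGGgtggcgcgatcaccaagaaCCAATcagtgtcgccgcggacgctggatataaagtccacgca
H2-D1: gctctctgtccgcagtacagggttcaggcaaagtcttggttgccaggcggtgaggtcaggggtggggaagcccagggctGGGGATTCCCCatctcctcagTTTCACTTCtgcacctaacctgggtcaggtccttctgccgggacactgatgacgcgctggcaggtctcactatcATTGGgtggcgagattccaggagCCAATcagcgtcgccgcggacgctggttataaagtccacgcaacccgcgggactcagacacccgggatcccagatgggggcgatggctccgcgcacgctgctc
B2m: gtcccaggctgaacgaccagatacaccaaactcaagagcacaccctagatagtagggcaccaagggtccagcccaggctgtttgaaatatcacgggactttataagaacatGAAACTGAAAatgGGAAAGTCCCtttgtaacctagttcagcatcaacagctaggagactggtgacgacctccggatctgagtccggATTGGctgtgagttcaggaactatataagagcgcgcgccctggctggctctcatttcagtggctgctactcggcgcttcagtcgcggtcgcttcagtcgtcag
Tap1: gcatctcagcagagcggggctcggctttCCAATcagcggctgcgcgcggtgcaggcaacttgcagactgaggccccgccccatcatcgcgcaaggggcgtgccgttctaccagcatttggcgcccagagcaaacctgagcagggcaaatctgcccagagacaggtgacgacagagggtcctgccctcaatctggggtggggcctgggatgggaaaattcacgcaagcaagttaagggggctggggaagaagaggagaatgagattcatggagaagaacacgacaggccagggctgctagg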

How the data were processed

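The authors deposited 1 file of values per library, in which the signal of a gene is its UMIs per 10000 UMIs of the cell. The deposit names Cell Ranger 6.1.2, Seurat 3.2.1 and R 3.6.2 for ligation, and Cell Ranger 7.0.0, Seurat 4.3.0 and R 4.2.2 for plaques. The methods of the paper differ, naming Seurat 4.3.0 for both, with R 4.2.2 for ligation and R 3.6.2 for plaques. UMIs were recovered by dividing by each cell's smallest step, and 100% of the recovered values were whole within 0.01.

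Tools were Seurat 5.3.0 and Matrix 1.6.5 in R 4.3.3, and Python 3.11.15 with pandas 2.3.3, matplotlib 3.10.9, scipy 1.17.1, anndata 0.12.19, numpy 2.4.6 and scanpy 1.11.5. Cells of each experiment were clustered together without integration on 2000 variable genes (plaque 18 components, resolution 0.9; ligation 17 and 0.2), leaving out the 10 members and the listed partner, proteasome, class II and regulator genes. A cluster took the name of the marker list with the best mean log2 ratio if this reached 0.5, at least 3 markers reached 0.5, and at least 1 own marker and no more of another list stood among its 10 leading genes. Other clusters were named by their leading gene. The smooth muscle total leaves out endothelial-like, macrophage-like, fibroblast-like and *Igfbp3*-led cells. Ratios of the comparisons have no pseudocount, those for naming a pseudocount of 1 and the profiles compared for likeness 0.1. The calculation was tested on simulated data.

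All members are named. Of other lists, the 2 highest and 2 lowest ratios among genes with at least 50 UMIs in each group were eligible to be named, and all constitutive subunits. The genes most like the members are the 10 with the highest r outside the lists. *Cd74* and other genes with fewer UMIs were named after their values were seen.

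The members and lists were chosen with earlier results of these data known. With those results known, settings of the main comparisons and 11 alternatives were written before the data were examined for this report. After values were seen, the limits for a name were set (first 0.4, then 0.5, with the condition on leading genes added later), as were the minimum of 20 cells per group compared, the direction of the shares of all genes, and the alternative without *Cd74* cells. A higher minimum, which dropped *Pln*-like and *Adamtsl1*-like cells, was tried and not kept. The contractile reference planned for ligation was replaced by the *Sparcl1*-led class, since no ligation cluster met the limit.

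Alternatives were 0.5 and 1.5 times the resolution, members among the variable genes, cells under 2000 genes, with immune markers or with the top 5% of Scrublet doublet scores left out, only cells with a Confetti UMI, cells thinned to 1 depth, a mean over cells, a mean over cells together with a pseudocount of 1, and no detection limit. The alternative of Confetti cells was made for the genotype comparisons of plaques alone.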

Additional observations from a re-analysis of the deposited data

Results flagged for a closer look

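Several members moved in opposite directions in different classes of 1 experiment, with intervals clear of 0 (log2 ratio with over without *Trf2 T188A*). These differences between classes and experiments were not tested.

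In ligation, *H2-D1* was higher in *Sparcl1*-led cells (0.29) and lower in interferon-like (−0.66) and remodelling-like cells (−0.44). *B2m* was higher in *Sparcl1*-led (0.29) and de-differentiated-like cells (0.33) and lower in interferon-like (−0.79) and remodelling-like cells (−0.40). Without cells holding a *Cd74* UMI, all of them in the control library, the 2 interferon-like values were 0.03 for *H2-D1* and −0.01 for *B2m*.

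In plaques, *H2-K1* was higher in *Igfbp2*-led (0.27) and lower in complement-like cells (−0.29), and neither was past the limit with a mean over cells and a pseudocount of 1. Over all smooth muscle cells, *Psmb8* was lower in ligation (−1.05, or −0.36 without interferon-like cells) and higher in plaques (0.34). Class shares differed between the libraries of each experiment. Their part was not tested beyond leaving out interferon-like cells in ligation.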

How the results depend on the processing

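No paired analysis was possible because each genotype had 1 library and all libraries were numbered replicate 1. Of 2469 member ratios under the alternatives, 2215 lay within the counting interval of the reported ratio, 222 outside it without a turn of a value past the limit, and 32 turned. Both 2469 and 2215 include the 249 ratios without the detection limit. These are the reported ratios themselves and lie within by construction. Of 249 counts of members past the limit, 192 stayed within 1.5 times and 57 did not. The cause was not tested unless stated. Values are written as reported, then under the alternative. G is the comparison of genotypes and S that of states.

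With *Cd74* cells left out, chosen after the values were seen and taking cells with high class I levels, interferon-like *H2-D1* went from −0.66 to 0.0345 and the de-differentiated-like count from 1 to 2. The other 24 ratios outside the interval lay in the interferon-like, remodelling-like and endothelial-like classes.

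At 0.5 times the resolution, the chondrocyte-like class also held cells called fibromyocyte-like. S in *ApoE-/-* went for *H2-K1* from −0.29 to 0.56, *H2-D1* −0.35 to 0.37, *Tapbp* −0.39 to 0.36, *Psmb8* −0.87 to 1.39 and *Psmb10* −0.44 to 0.51. S in *Trf2 T188A*/*ApoE-/-* went for *H2-K1* from −0.42 to 0.54, *Tapbp* −0.29 to 0.42, *Psmb8* −0.34 to 1.73 and *Psmb10* −0.99 to 0.37, and the count from 5 to 9. G for chondrocyte-like *Tap1* went from −0.28 to 0.0838. Counts went from 1 to 2 (de-differentiated-like) and 2 to 0 (long-gene-like).

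At 1.5 times the resolution, G for *Igfbp2*-led *Psmb8* went from 0.66 to −0.0260. Counts went from 6 to 2 (*Igfbp2*-led), 1 to 2 (de-differentiated-like), 1 to 3 (*Itih4*-like), 1 to 2 (contractile), 4 to 2 (fibromyocyte-like) and 5 to 3 (chondrocyte-like S in *Trf2 T188A*/*ApoE-/-*).

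With cells under 2000 genes left out, the long-gene-like count went from 2 to 4. With immune-marker cells left out, G for chondrocyte-like *Psmb8* went from 0.73 to −0.00700 and counts from 1 to 2 (*Itih4*-like) and 3 to 5 (complement-like). With the top 5% of Scrublet scores left out, counts went from 1 to 2 (de-differentiated-like), 2 to 5 (plaque *Sparcl1*-led) and 3 to 1 (chondrocyte-like).

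With a mean over cells, G went for chondrocyte-like *Tap1* from −0.28 to 0.00185, fibromyocyte-like *Psmb10* 0.25 to −0.13, long-gene-like *Tap2* 0.44 to −0.0731 and long-gene-like *Psmb8* −0.58 to 0.11. S in *Trf2 T188A*/*ApoE-/-* for chondrocyte-like *Tapbp* went from −0.29 to 0.17. Counts went from 1 to 4 (*Itih4*-like), 3 to 6 (chondrocyte-like) and 2 to 1 (long-gene-like).

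With members among the variable genes, G for *Itih4*-like *Psmb9* went from −0.32 to 0.20, and S in *Trf2 T188A*/*ApoE-/-* for chondrocyte-like *Psmb8* from −0.34 to 0.24. Counts went from 1 to 2 (de-differentiated-like), 1 to 3 (*Itih4*-like), 3 to 5 (complement-like), 4 to 2 (fibromyocyte-like) and 5 to 3 (chondrocyte-like S in *Trf2 T188A*/*ApoE-/-*).

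Without the detection limit, more genes enter by construction. Counts went from 3 to 6 (ligation *Sparcl1*-led), 1 to 2 (de-differentiated-like), 4 to 8 (remodelling-like), 1 to 2 (*Itih4*-like), 1 to 2 (contractile) and 2 to 4 (long-gene-like). The share of all genes past the limit in remodelling-like cells went from 21.4% to 45.1%.

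With only Confetti cells, *Adamtsl1*-like *Tap1* went from −0.72 to 0.45 and counts from 1 to 3 (*Itih4*-like) and 2 to 4 (long-gene-like).

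With a mean over cells and a pseudocount of 1 together, G went for chondrocyte-like *Tap1* to 0.000140, fibromyocyte-like *Psmb10* −0.0275, long-gene-like *Tap2* −0.0116 and *Psmb8* 0.00834, and S in *Trf2 T188A*/*ApoE-/-* for chondrocyte-like *Tapbp* to 0.0658. Counts went from 3 to 0 (ligation *Sparcl1*-led), 4 to 0 (*Adamtsl1*-like), 6 to 0 (*Igfbp2*-led), 1 to 3 (*Itih4*-like), 6 to 1 (*Pln*-like), 2 to 0 (plaque *Sparcl1*-led), 3 to 0 (complement-like), 1 to 0 (contractile), 4 to 0 (fibromyocyte-like) and 2 to 0 (long-gene-like). S counts went from 10 to 6 (complement-like in *ApoE-/-*), 8 to 4 and 9 to 4 (fibromyocyte-like), 9 to 5 in both (*Itih4*-like), and 7 to 1 and 5 to 0 (chondrocyte-like).

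With cells thinned, G went for endothelial-like *Tapbp* from −0.27 to 0.0907, *Adamtsl1*-like *Psmb9* 0.33 to −0.0780, *Igfbp2*-led *Tap2* −0.30 to 0.0460, chondrocyte-like *Psmb8* 0.73 to −0.13 and fibromyocyte-like *Psmb9* 0.28 to −0.13. S in *ApoE-/-* for chondrocyte-like *Tapbp* went from −0.39 to 0.0508. Counts went from 1 to 2 (de-differentiated-like), 6 to 3 (*Igfbp2*-led), 1 to 4 (*Itih4*-like), 3 to 5 (chondrocyte-like), 3 to 5 (complement-like), 9 to 5 (*Itih4*-like S in *ApoE-/-*), and 7 to 2 and 5 to 3 (chondrocyte-like S).

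At 0.5 times the resolution ligation *Sparcl1*-led cells merged with de-differentiated-like cells and gave no value, subsets under 10 cells gave none, and plaque *Sparcl1*-led *Nlrc5* (8 and 0 UMIs) had no ratio.

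*Nlrc5*, *Tap1*, *Psmb8* and *Psmb9* did not pass the detection limit in *Sparcl1*-led and remodelling-like ligation cells. Whether depth or a low level set this was not tested. A difference between genotypes cannot be told from one between libraries, animals or dissections, since each genotype was 1 library. The ligation libraries differed in depth (medians 8631 and 11153 UMIs), and classes are clusters named from markers.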
